A study of Homo sapiens with 6 samples.

Results

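Antisense and divergent long non-coding RNA (lncRNA) genes were followed in NALM6 cells, an established human precursor B-cell acute lymphoblastic leukemia line. The cells received either DMSO, the solvent control, or 500 nM THZ1 for 24 h, and total RNA of 3 libraries per treatment was sequenced. THZ1 is a covalent inhibitor of CDK7, the kinase of the transcription factor TFIIH. The members were chosen by symbol and by measured level. They are the genes whose symbol ends in -AS and a number (antisense) or in -DT (divergent transcript) and whose mean level reached 2 in the DMSO-treated or in the THZ1-treated libraries. The level is the deposited value per gene, read as log2(FPKM + 1). Of 378 genes with such a symbol among the 16730 genes of the deposited expression table, 302 reached that level, 275 with an -AS and 27 with a -DT symbol. All 302 gene identifiers were present in the count table of 57905 genes. Each member was set beside its partner, the gene named before the hyphen, and the 302 members had 295 partner genes between them. For LIX1L-AS1 and RPARP-AS1, no partner was matched.

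The 302 identifiers carried 301 symbols, because DNAJC9-AS1 was listed under 2 identifiers. GENCODE 44 mapped to GRCh37 held 299 of the members and gave 296 of them the lncRNA class. It renamed 22 members, 16 of them from an -AS to a -DT symbol, among these ACTN1-AS1, CSE1L-AS1 and TMCC1-AS1. BRWD1-AS2 was annotated there as BRWD1-IT2, a transcript on the same strand as BRWD1, and so was not antisense to it.

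A promoter of a mammalian gene often starts transcription in both directions. The RNA made in the upstream, antisense direction is usually ended early at poly(A) signals and degraded by the nuclear exosome, while U1 snRNP protects the longer sense transcript from such early ending. Other antisense genes start inside or beyond the partner gene and run through its exons or introns. Some antisense and divergent RNAs are spliced and stable, and OIP5-AS1 is a conserved example.

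The libraries held 7876402 to 11164840 counts, with the 3 THZ1-treated libraries below the 3 DMSO-treated libraries. Replicates differed by more than sampling noise in each pair (chi-square per gene of 1.80 to 8.79), so each library was counted once. The labels do not say whether the libraries came from separate cultures, so the p-values measure the spread between these libraries, which may be technical. All 10 precursor B-cell markers were above 3 counts in every library and summed to 3890 to 4050 counts per 1000000 counts of the library (CPM) with DMSO and 2095 to 2169 CPM with THZ1. No erythroid marker and at most 1 of 4 T-cell markers was above 3 counts in any library, with sums of at most 0.526 and 0.969 CPM. Of the 4 myeloid markers, 3 were above 3 counts in each library with DMSO and 4 with THZ1, and they summed to 3.88 to 4.59 CPM with DMSO and 17 to 18 CPM with THZ1. Of 3 epithelial or fibroblast markers, 1 was above 3 counts in each library, with sums of 3.20 to 4.30 CPM with DMSO and 15.5 to 16.1 CPM with THZ1. Their part in the results below was not tested. These are bulk libraries, in which fewer cells making an RNA and less of that RNA per cell cannot be told apart.

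How much of either promoter lies between the 2 gene spans of a divergent pair was not tested. The sequence between the spans joins the annotated 5′ ends of the 2 genes. It is shown for the 5 named divergent pairs with a gap of 12 to 300 bases, since 3 of these lncRNA genes (RB1-DT, CSE1L-AS1 and ACTN1-AS1) are among the 6 with the highest fitted difference, TMCC1-AS1 has the lowest, and MAFG-DT stands beside a partner that rose. Each is given 5′ to 3′ on the partner's strand (GRCh37, GENCODE 44 spans), and no annotated exon lies in any of them. Capitals mark a GC box (GGGCGG or CCGCCC) or a CCAAT box (CCAAT or ATTGG), and no TATAAA or TTTATA was present. The RB1 gap is chr13:48877857-48877879 (plus strand), the CSE1L gap chr20:47662706-47662782 (plus strand), the MAFG gap chr17:79885612-79885704 (minus strand), the TMCC1 gap chr3:129612555-129612653 (minus strand) and the ACTN1 gap chr14:69446158-69446398 (minus strand).
RB1-DT and RB1: gacgttttcccgcggttggacgc
CSE1L-AS1 and CSE1L: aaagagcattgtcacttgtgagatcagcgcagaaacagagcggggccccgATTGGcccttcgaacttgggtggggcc
MAFG-DT and MAFG: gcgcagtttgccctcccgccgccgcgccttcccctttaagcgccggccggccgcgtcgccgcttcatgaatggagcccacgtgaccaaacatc
TMCC1-AS1 and TMCC1: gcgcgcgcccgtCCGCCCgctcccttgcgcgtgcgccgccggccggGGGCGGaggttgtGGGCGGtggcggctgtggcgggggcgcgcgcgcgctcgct
ACTN1-AS1 and ACTN1: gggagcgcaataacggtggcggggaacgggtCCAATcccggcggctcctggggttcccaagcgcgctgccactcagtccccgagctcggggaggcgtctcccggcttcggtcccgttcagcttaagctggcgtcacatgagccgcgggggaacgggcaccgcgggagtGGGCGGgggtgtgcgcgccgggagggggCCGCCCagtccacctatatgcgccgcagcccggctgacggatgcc

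The gaps were short and rich in G and C, from 23 bases and 65.2% G + C (RB1) to 241 bases and 72.6% (ACTN1), with the lowest share, 58.4%, at CSE1L and the highest, 85.9%, at TMCC1. The TMCC1 gap held 3 GC boxes, the ACTN1 gap 2 GC boxes and 1 CCAAT box, and the CSE1L gap 1 CCAAT box, whereas the RB1 and MAFG gaps held neither motif. The gaps differed in length and belong to pairs picked by their change, so their motif counts are not comparable. A relation between motifs and direction was not tested.

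Pairs were placed by the annotation. In 250 pairs the lncRNA gene overlapped its partner on the opposite strand, and in 44 the genes pointed away from each other without overlapping, with starts at most 5 kb apart. Of the rest, 2 lay on opposite strands in another arrangement, 1 on the same strand, and 5 could not be placed. Measured between main transcript starts, 138 lncRNA genes started within 1 kb of the partner's start, 139 started inside or beyond the partner gene, and 19 started more than 1 kb upstream. The lncRNA shared exon bases with its partner in 209 pairs and none in 87. The strand setting of the read counting is not given in the sources used here. In the 209 pairs with shared exon bases, reads of 1 gene could therefore have been counted for, or withheld from, the other. The same can hold where a lncRNA gene overlaps a gene other than its partner.

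The members' levels ranged from 0.34 to 9.08 in the DMSO-treated libraries (median 2.79) and from 0.15 to 8.81 in the THZ1-treated libraries (median 3.80). The rule used these levels, so they are a description. Of the members, 188 reached the level of 2 in both treatments, 86 in the THZ1-treated libraries only, and 28 in the DMSO-treated libraries only. A member that qualified in 1 treatment only had to differ between treatments. Members that started within 1 kb of the partner's start had a median level of 2.29 with DMSO and 3.87 with THZ1, and members that started inside or beyond the partner had 3.57 and 3.71. The plot of mean levels shows the first kind mainly above the diagonal and the second kind on both sides of it.

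**Figure D1:**
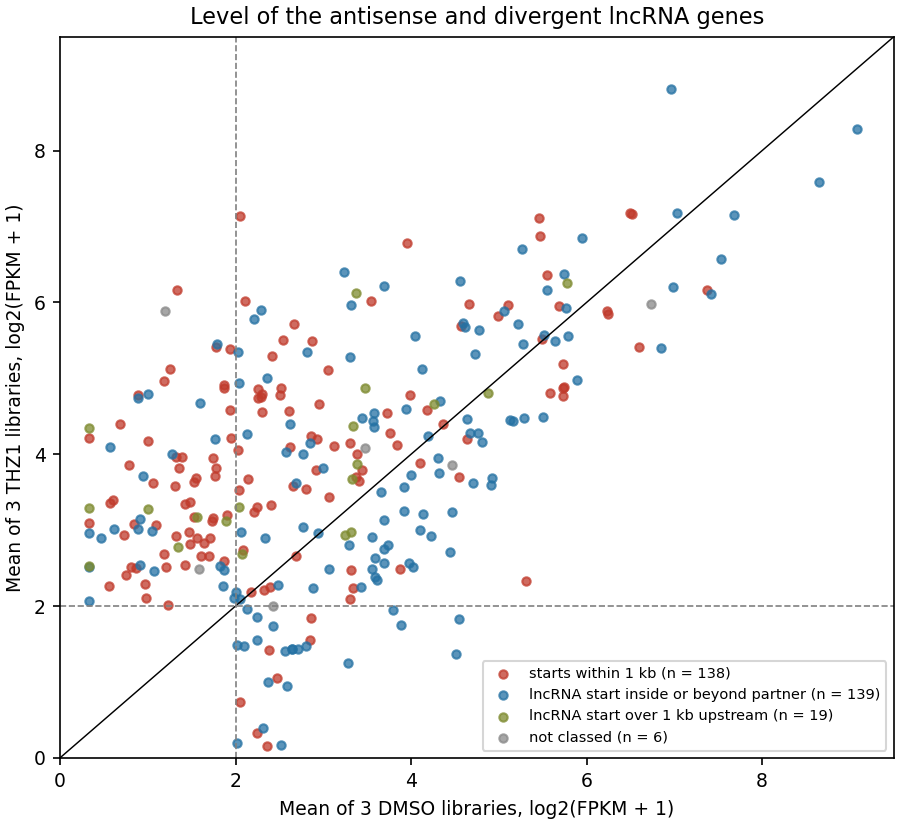
Mean deposited level, log2(FPKM + 1), of the 302 lncRNA genes in 3 DMSO-treated (horizontal axis) and 3 THZ1-treated (vertical axis) libraries, with 1 point per gene coloured by where the lncRNA starts, the diagonal of equal level, and dashed lines at the level of 2. The upper left field holds the 86 genes at 2 or more with THZ1 only, and the lower right field the 28 genes with DMSO only.

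Together the members took 0.525% to 0.539% of all counts with DMSO and 0.616% to 0.628% with THZ1. Of 302 members, 286 had enough counts to be tested. Of these, 127 (44.4%) were called higher and 10 (3.50%) lower with THZ1 (edgeR adjusted p under 0.05 and 1.5 or more on the log2 scale), against 24.6% and 12.9% of all 16622 genes tested. Among the other lncRNA genes at the same level threshold, 49.6% were called higher and 5.59% lower. The treatments did not overlap in 253 of the 286 (189 higher and 64 lower with THZ1), or 88.5%, against 84.7% of all genes tested. The choice of members used the same contrast, so nothing is read from these counts. The median log2 fold change was 1.16 over the 286 members and 0.03 over all genes tested, and the 1932 other lncRNA genes at the threshold had a median of 1.49.

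The difference between treatments varied with the place of the start and with shared exon bases. The median log2 fold change was 2.40 in 132 members that started within 1 kb of the partner's start, 1.36 in 15 that started further upstream and 0.29 in 133 that started inside or beyond the partner. Among members at the level of 2 in both treatments, the medians were 1.05 (75 members, starts within 1 kb) and 0.18 (96 members, start inside or beyond). The 23 -DT members tested had a median of 3.08, and 78 members sharing no exon base with the partner had 3.18, or 3.13 with genes at or under 3 counts per library set to their bound, against 0.75 in 202 members with shared exon bases. In members with shared exon bases, the medians were 1.58 (82 members, starts within 1 kb) and -0.05 (110 members, start inside or beyond). In members sharing no exon base the order was the reverse, 3.03 (50 members) and 4.115 (23 members, or 3.55 with the same bounds). These values include members that reached the level of 2 only with THZ1 and so had to be higher there. Restricted to the level in both treatments, the medians were 1.94 in 12 -DT members, 1.79 in 35 members sharing no exon base and 0.52 in 147 with shared exon bases. These splits by start and exon were added after the values had been seen, and no test was made between them.

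The largest fitted differences belonged to members with almost no reads under DMSO. BRWD1-AS1 (chr21:40687633-40695144, plus strand) starts upstream of BRWD1, a bromodomain protein of chromatin, and shares no exon base with it. BRWD1-AS1 had 0 counts in each DMSO-treated library and 6.05, 6.92 and 3.48 CPM with THZ1, at least 22.0-fold higher than a floor of 3 counts per library. CSE1L-AS1 (chr20:47657000-47662705, minus strand), divergent from the nuclear export factor gene CSE1L, had 0 counts with DMSO and 4.21, 5.40 and 4.68 CPM with THZ1, at least 19.1-fold higher. ACTN1-AS1 (chr14:69446399-69454180, plus strand), divergent from the alpha-actinin gene ACTN1, had 0 counts with DMSO and 2.37, 3.74 and 3.48 CPM with THZ1, at least 12.8-fold higher. In all 3 genes, reads appeared in every THZ1-treated library and in no DMSO-treated library.

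RB1-DT (chr13:48870298-48877856, minus strand) is divergent from RB1, the retinoblastoma cell cycle repressor. It had 3, 1 and 0 counts in the DMSO-treated libraries and 112, 102 and 108 in the THZ1-treated libraries, a ratio of 130 (95% Clopper-Pearson interval 50.4 to 482). BRWD1-AS2 (chr21:40685887-40686886, minus strand) had 5, 1 and 3 counts with DMSO and 182, 169 and 168 with THZ1, a ratio of 93.4 (48.8 to 206). These intervals cover counting error only. ADAMTSL4-AS1 (chr1:150532678-150534591, minus strand) had 0, 0 and 1 count with DMSO and 48, 55 and 74 with THZ1, a ratio of 287 (50.8 to 11390). The latter gene shares 736 exon bases with ADAMTSL4 and overlaps MCL1, the survival gene, on its own strand. Each of these 3 lncRNA genes was separated between treatments, with every THZ1-treated library above every DMSO-treated library.

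**Figure D2:**
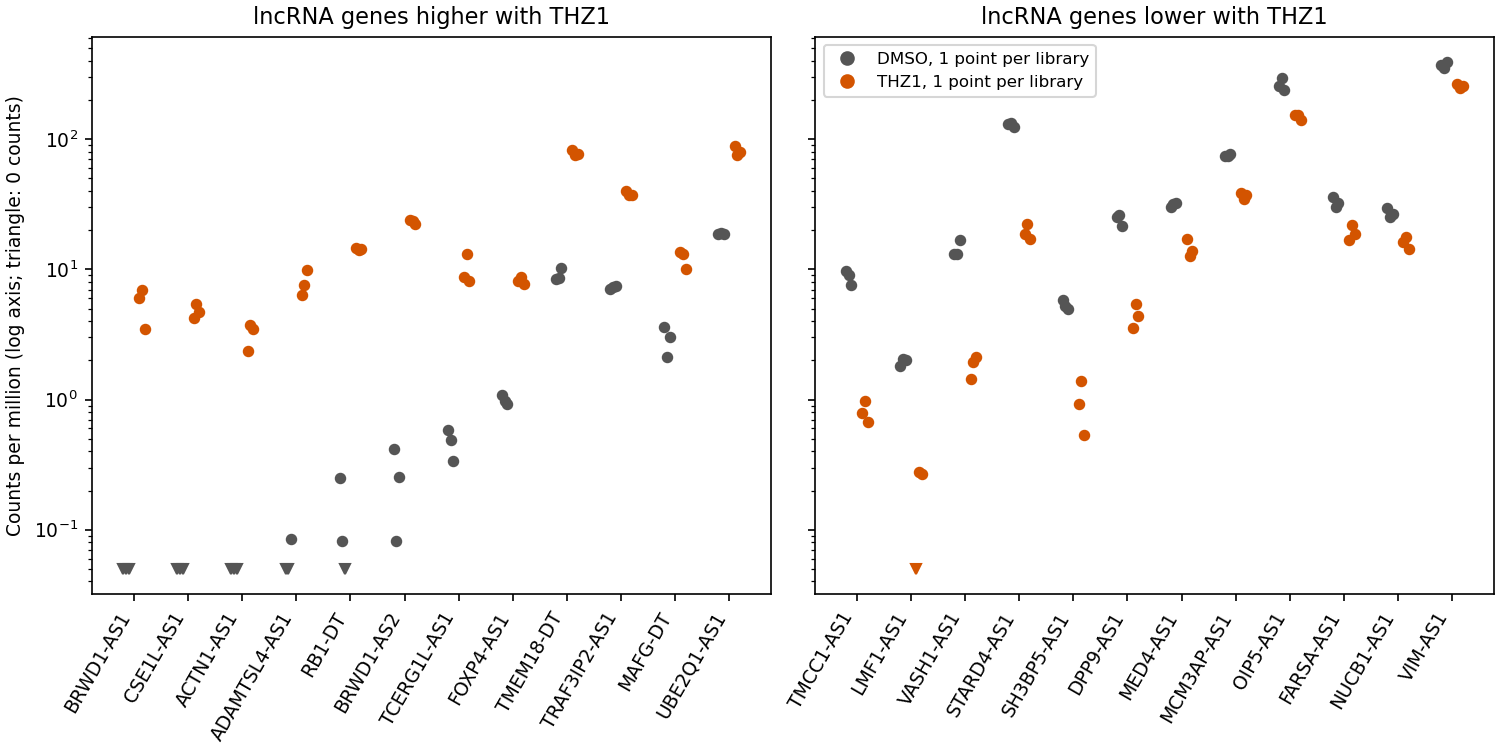
CPM on a log axis in each DMSO-treated (grey) and THZ1-treated (orange) library for 24 named lncRNA genes, 12 higher and 12 lower with THZ1, with triangles for libraries with 0 counts. The treatments do not overlap in any of the 24 genes, and the separation differs in size, for example between RB1-DT (0 to 0.248 CPM against 14.1 to 14.7 CPM) and VIM-AS1 (355 to 392 CPM against 249 to 265 CPM).

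The partner genes of these members did not share their direction, apart from ADAMTSL4. RB1 fell from 176 ± 21.1 to 43.0 ± 5.37 CPM (mean ± SD, n = 3; log2 fold change -2.04 ± 0.09, standard error; edgeR adjusted p = 4.45e-19). CSE1L fell from 226 ± 7.07 to 51.7 ± 5.64 CPM (-2.13 ± 0.08, edgeR adjusted p = 3.37e-21). ACTN1 fell from 100 ± 1.21 to 57.8 ± 3.79 CPM (-0.80 ± 0.08, edgeR adjusted p = 9.09e-11). BRWD1, the partner of both BRWD1-AS1 and BRWD1-AS2, fell from 51.7 ± 1.86 to 37 ± 1.16 CPM (-0.48 ± 0.09, edgeR adjusted p = 1.21e-05). In these 4 genes every DMSO-treated library was above every THZ1-treated library, opposite to the lncRNA genes named with them. ADAMTSL4, a secreted matrix protein gene, rose from 0.415 ± 0.084 to 41.4 ± 1.69 CPM (6.60 ± 0.20, edgeR adjusted p = 1.65e-23) together with its overlapping lncRNA.

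Whether the partner genes as a whole moved with THZ1 is a comparison the rule did not use. Of 295 partner genes, 286 passed the filter, and 33 (11.5%) rose and 28 (9.79%) fell by 1.5 or more on the log2 scale at an edgeR adjusted p under 0.05. The background was 15.3% and 13.3% of 11929 protein-coding genes tested. At any fold, 98 (34.3%) rose, 147 (51.4%) fell and 41 did not pass, against 36.3% and 47.6% of protein-coding genes, so that the partners were close to protein-coding genes at large. Their median log2 fold change was -0.26, against -0.20 for protein-coding genes. The split of called partners at 1.5 depended on the scaling, with 33 higher and 28 lower by TMM, 39 and 21 by upper quartile factors, and 28 and 47 by library sizes alone. Limma on the deposited values, which differs in data and model as well, called 17 of 271 partners higher and 36 lower.

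The partner median differed little with the place of the lncRNA start. It was -0.33 in 137 partners with starts within 1 kb, -0.08 in 18 whose lncRNA started further upstream and -0.25 in 130 whose lncRNA started inside or beyond. Partners of -DT members had a median of -0.08, against 3.08 for the -DT members themselves. The lncRNA median exceeded the partner median in each of these classes, but the lncRNA genes were chosen by their level in each treatment and the partners were not. Of the 132 lncRNA genes tested with starts within 1 kb, 50 had reached the level with THZ1 only. At the level in both treatments, the lncRNA and partner medians were 1.05 and -0.34 with starts within 1 kb, 0.69 and -0.19 further upstream, and 0.18 and -0.24 inside or beyond the partner, and those of -DT pairs 1.94 and 0.09.

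**Figure D3:**
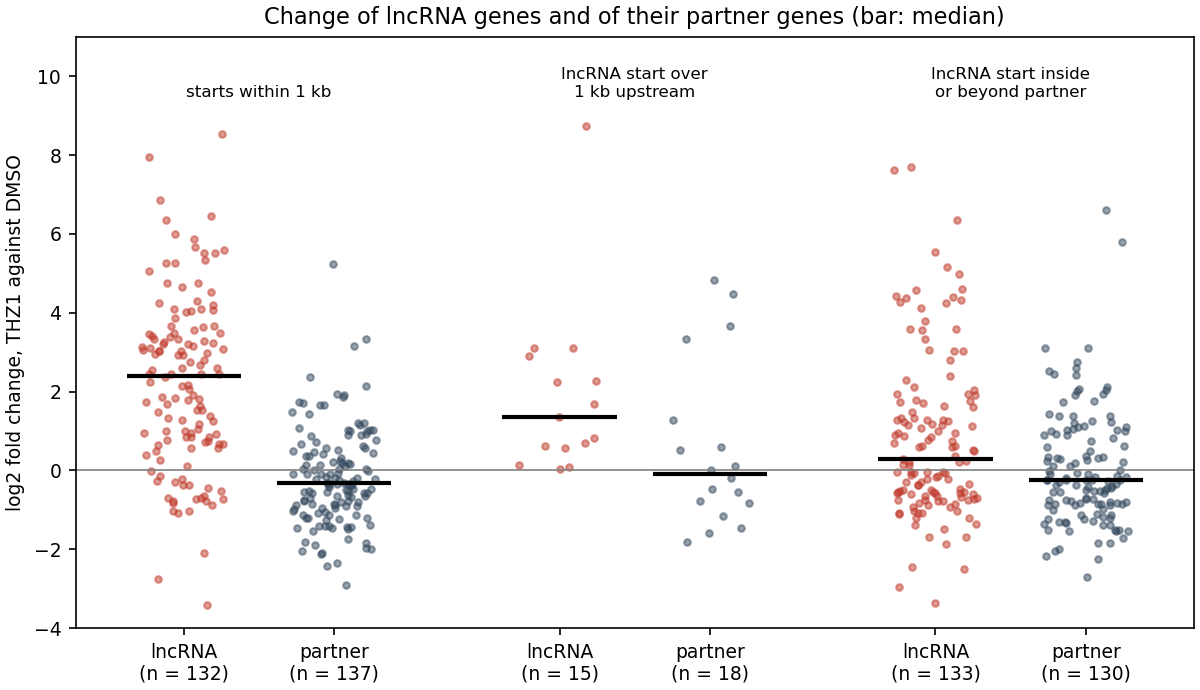
Fitted log2 fold change (THZ1 against DMSO) of lncRNA genes (red) and of their partner genes (dark blue), 1 point per gene, with a black bar at the median, in 3 classes of lncRNA start. The lncRNA medians are 2.40, 1.36 and 0.29 and the partner medians -0.33, -0.08 and -0.25, and the fitted values of lncRNA genes with 0 counts under DMSO depend on the prior count.

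In 275 pairs with both genes tested, the median difference between the lncRNA and its partner was 1.17 on the log2 scale, and the lncRNA's value was the larger in 209 pairs. The choice of members set part of this difference, since in the 72 pairs whose lncRNA reached the level with THZ1 only the median was 4.25. In the 180 pairs at the level in both treatments the median difference was 0.57, and the lncRNA's value was the larger in 128. Over all 275 pairs, which share libraries and may share reads, Spearman's rho between the 2 log2 fold changes was 0.26. In the 180 pairs at the level in both treatments rho was 0.39. Among all 275, it was 0.47 in 198 pairs with shared exon bases and -0.08 in 74 pairs without. In the 106 pairs with shared exon bases and a lncRNA start inside or beyond the partner, rho was 0.66 and the median difference 0.02. In pairs without a shared exon base the median difference was 3.35, and 2.54 in the 33 of them at the level in both treatments. Among pairs whose lncRNA was separated between treatments, 75 joined a higher lncRNA with a partner that fell and 83 a higher lncRNA with a partner that rose, while 47 joined a lower lncRNA with a partner that fell and 4 a lower lncRNA with a partner that rose. In 36 of the 75 and 27 of the 83 the lncRNA had reached the level with THZ1 only. At the level in both treatments, the 4 numbers were 38, 56, 37 and 2. Over all 286 partners tested, 34.3% rose and 51.4% fell at any fold. Of all 286 members tested, 189 were higher and 64 lower without overlap, and 84.7% of all genes tested did not overlap. Whether the pairs moved together more than these shares give was not tested.

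**Figure D4:**
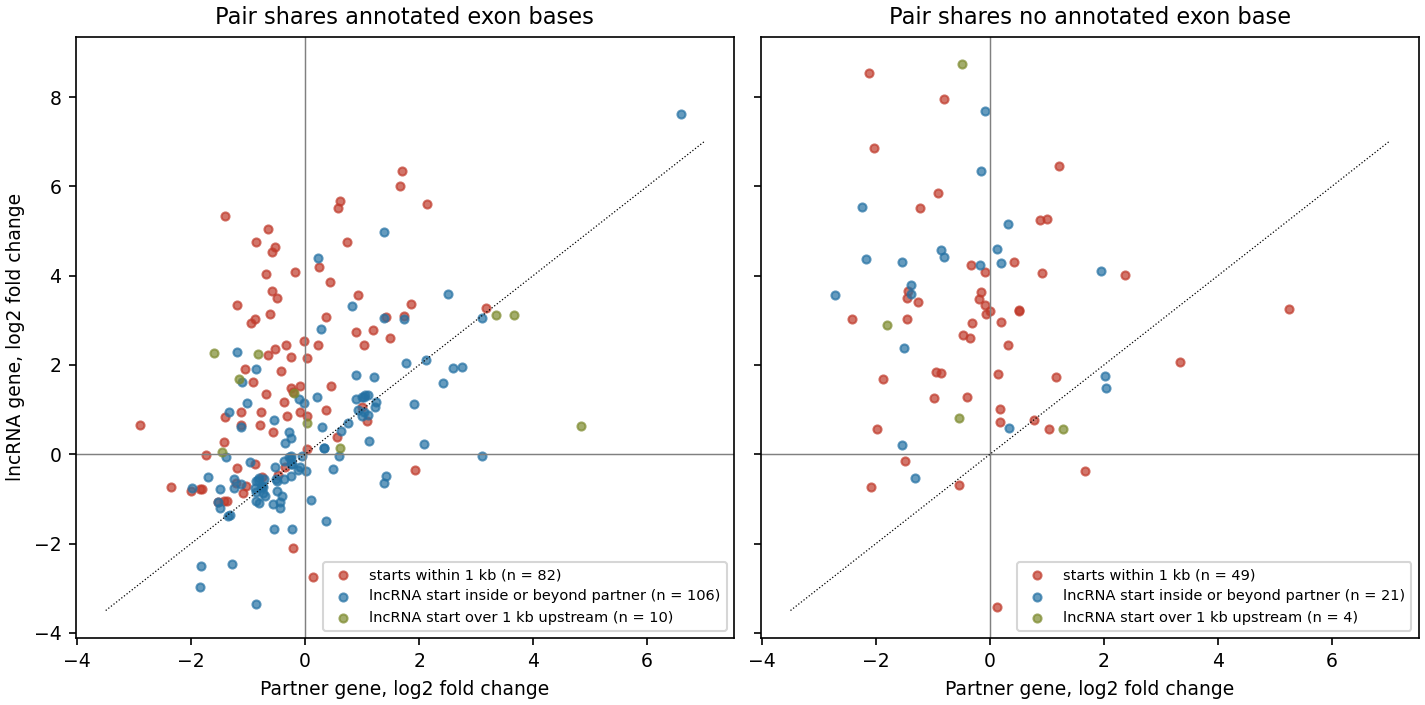
Log2 fold change of each lncRNA gene (vertical axis) against that of its partner (horizontal axis), in pairs that share annotated exon bases (left) and pairs that share none (right), with 1 point per pair coloured by the lncRNA start and a dotted line of equal change. On the left many blue points (start inside or beyond the partner) lie along the dotted line, where rho was 0.66, and on the right most points lie above it, where rho was -0.08.

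Among the pairs at the level of 2 in both treatments, 30 had a partner called at the log2 fold change of 1.5 and a lncRNA separated between treatments, with 7 in opposite and 23 in the same direction. Of the 180 partners tested in this class, 11.1% were called higher and 7.78% lower, against 15.3% and 13.3% of protein-coding genes. Of its 186 lncRNA genes tested, 113 were higher and 46 lower without overlap. No test was made of the 7 and 23. FOXP4-AS1 (chr6:41420627-41516359, minus strand) starts 212 bases upstream of FOXP4, a forkhead transcription factor gene. It had 1.08, 0.983 and 0.928 CPM with DMSO and 8.15, 8.72 and 7.75 CPM with THZ1. FOXP4 fell from 57.9 ± 1.62 to 10.8 ± 1.47 CPM (-2.41 ± 0.11, edgeR adjusted p = 8.44e-19). The pair shares no exon base, and neither gene's treatments overlapped. In the per-length deposited level, FOXP4-AS1 was below FOXP4 with DMSO (2.30 against 4.72) and above it with THZ1 (4.55 against 2.04).

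TCERG1L-AS1 (chr10:132893481-132894040, plus strand) lies within TCERG1L without exon overlap. It had 0.579, 0.492 and 0.338 CPM with DMSO and 8.81, 13.2 and 8.16 CPM with THZ1, while TCERG1L fell from 59.4 ± 0.19 to 13.1 ± 2.60 CPM (-2.18 ± 0.12, edgeR adjusted p = 1.78e-17). TRAF3IP2-AS1 (chr6:111804662-111919986, plus strand) had 7.03, 7.38 and 7.51 CPM with DMSO and 40.0, 37.1 and 37.4 CPM with THZ1. Its partner TRAF3IP2, an adaptor of interleukin-17 receptors, fell from 164 ± 6.13 to 57.4 ± 0.50 CPM (-1.51 ± 0.08, edgeR adjusted p = 4.10e-18). TRAF3IP2-AS1 also overlaps REV3L, which lies on the opposite strand. FOXP4-AS1, TCERG1L-AS1 and TRAF3IP2-AS1 were thus higher in each THZ1-treated library, and their 3 partners lower.

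In other pairs at the level in both treatments, both genes were higher. TSPOAP1, which encodes a binding protein of a mitochondrial translocator protein, rose most among partners of members at the level of 2 in both treatments, from 26.5 ± 1.21 to 758 ± 17.9 CPM (4.84 ± 0.08, edgeR adjusted p = 3.48e-30). Its lncRNA TSPOAP1-AS1 (chr17:56401833-56493127, plus strand) had 73.8, 71.5 and 78.1 CPM with DMSO and 116, 117 and 111 CPM with THZ1 (0.63 on the log2 scale). TSPOAP1-AS1 also overlaps MIR142HG, MIR4736, SUPT4H1 and RNF43, all on the opposite strand. TMEM18 rose from 39.8 ± 2.03 to 507 ± 28.1 CPM (3.67 ± 0.08, edgeR adjusted p = 1.23e-27), and TMEM18-DT (chr2:677186-697382, plus strand), which shares 118 exon bases with it, had 8.52, 8.52 and 10.2 CPM with DMSO and 82.6, 75.7 and 77.3 CPM with THZ1. The increase in TMEM18-DT (3.11 on the log2 scale) was close to that of TMEM18, while TSPOAP1-AS1 differed far less than TSPOAP1.

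MAFG, a small MAF transcription factor gene, rose from 68.2 ± 2.59 to 692 ± 41.8 CPM (3.34 ± 0.07, edgeR adjusted p = 5.43e-27). MAFG-DT (chr17:79885705-79888629, plus strand), which starts 94 bases away on the other strand and shares no exon base, had 3.64, 2.13 and 3.04 CPM with DMSO and 13.7, 13.2 and 10.03 CPM with THZ1. LMNTD2 rose from 7.40 ± 1.74 to 63.5 ± 3.51 CPM (3.10 ± 0.13, edgeR adjusted p = 1.84e-20), and LMNTD2-AS1 (chr11:557595-560107, plus strand), which shares 1097 exon bases with it, had 4.80, 4.75 and 3.80 CPM with DMSO and 34.2, 40.1 and 36.4 CPM with THZ1. The MAFG pair is the 1 pair of these 4 with no exon base in common.

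The lowest fitted log2 fold changes were in 6 members. TMCC1-AS1 (chr3:129612654-129637421, plus strand) had 9.76, 9.02 and 7.60 CPM with DMSO and 0.789, 0.969 and 0.668 CPM with THZ1 (-3.43 ± 0.29 on the log2 scale). Its divergent partner TMCC1, an endoplasmic reticulum protein gene, was at 15.7 ± 1.18 and 17.1 ± 2.0 CPM and did not pass the test (0.12 ± 0.13, edgeR adjusted p = 0.408). It passed as higher with upper quartile factors (0.31, adjusted p = 0.031) and as lower in limma on the deposited values (-0.52, adjusted p = 0.00818). STARD4-AS1 (chr5:110846094-111075423, plus strand) had 130, 133 and 124 CPM with DMSO and 18.7, 22.3 and 17.1 CPM with THZ1 (-2.74 ± 0.10). Among other genes, STARD4-AS1 also overlaps NREP on the opposite strand. STARD4, which encodes a cholesterol transfer protein, was at 48.3 ± 4.38 and 53.3 ± 1.68 CPM (0.14 ± 0.09, edgeR adjusted p = 0.139), passed the test as higher under 4 of the alternatives and was at -0.11 with library sizes alone. In both pairs the lncRNA was lower in all THZ1-treated libraries and the partner's treatments overlapped.

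VASH1-AS1 (chr14:77248076-77253067, minus strand) had 13.2, 13.2 and 17 CPM with DMSO and 1.45, 1.94 and 2.14 CPM with THZ1. It shares 1044 exon bases with VASH1, a tubulin carboxypeptidase gene, which fell from 20.3 ± 0.20 to 5.62 ± 0.90 CPM (-1.85 ± 0.16, edgeR adjusted p = 2.06e-12). Among other genes, VASH1-AS1 also overlaps ANGEL1 on its own strand. DPP9-AS1 (chr19:4679294-4685960, plus strand) had 25.3, 26.1 and 21.6 CPM with DMSO and 3.55, 5.40 and 4.41 CPM with THZ1, and the dipeptidyl peptidase gene DPP9 fell from 123 ± 8.65 to 50.9 ± 3.27 CPM (-1.27 ± 0.08, edgeR adjusted p = 2.84e-15). SH3BP5-AS1 (chr3:15295691-15306022, plus strand) had 5.87, 5.24 and 4.98 CPM with DMSO and 0.920, 1.38 and 0.535 CPM with THZ1, and SH3BP5, which encodes a binding protein of the kinase BTK, fell from 2.43 ± 0.76 to 0.672 ± 0.13 CPM (-1.84 ± 0.41, edgeR adjusted p = 0.000149). These 3 lncRNA genes start inside or beyond their partners and share 1044 to 2475 exon bases with them.

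LMF1-AS1 (chr16:971033-984495, plus strand) had 22, 25 and 24 counts with DMSO and 0, 2 and 2 counts with THZ1, a ratio of 0.091 (95% Clopper-Pearson interval 0.024 to 0.244). LMF1, a lipase maturation factor gene, fell from 20.2 ± 0.50 to 11.1 ± 0.59 CPM (-0.86 ± 0.13, edgeR adjusted p = 5.25e-07). All 3 THZ1-treated libraries of LMF1-AS1 were under the floor of 3 counts. Of the 6 lowest members, 4 had a partner that fell and 2, TMCC1-AS1 and STARD4-AS1, a partner that did not pass the test.

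The members with the highest per-length deposited levels were all antisense genes that start inside or beyond the partner and share exon bases with it. In CPM, which is not divided by length, the order of members differed. VIM-AS1 (chr10:17256238-17272017, minus strand) had the highest level, 9.08 with DMSO and 8.29 with THZ1, and 373, 355 and 392 CPM with DMSO against 265, 249 and 255 CPM with THZ1. VIM, the vimentin gene, fell from 1121 ± 84.8 to 643 ± 1.33 CPM (-0.80 ± 0.07, edgeR adjusted p = 2.88e-12). UBE2Q1-AS1 (chr1:154526085-154527493, plus strand) had 18.6, 18.9 and 18.7 CPM with DMSO and 88.4, 75.3 and 80.5 CPM with THZ1. UBE2Q1, a ubiquitin-conjugating enzyme gene, rose from 93.8 ± 2.56 to 406 ± 31.6 CPM (2.11 ± 0.07, edgeR adjusted p = 3.11e-22), and the log2 fold change of UBE2Q1-AS1 was 2.12. These genes share 656 (VIM) and 51 (UBE2Q1) exon bases with their lncRNA.

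FARSA-AS1 (chr19:13041336-13044110, plus strand) had 36.0, 30.4 and 32.1 CPM with DMSO and 17, 21.9 and 18.6 CPM with THZ1, and FARSA, a phenylalanyl-tRNA synthetase subunit gene, fell by 1.5 on the log2 scale (edgeR adjusted p = 1.87e-17). MED4-AS1 (chr13:48651273-48654127, plus strand) had 30.1, 32.0 and 32.3 CPM with DMSO and 17.1, 12.7 and 13.9 CPM with THZ1, and the Mediator subunit gene MED4 fell by 0.57 (edgeR adjusted p = 4.97e-07). NUCB1-AS1 (chr19:49414187-49422148, minus strand) had 29.6, 25.3 and 26.8 CPM with DMSO and 16.2, 17.9 and 14.4 CPM with THZ1, and NUCB1, a calcium-binding protein gene, fell by 0.77 (edgeR adjusted p = 8.05e-10). All 3 lncRNA genes were lower in every THZ1-treated library, as were their partners.

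SMAD1-AS1 (chr4:146435767-146438270, minus strand) had 34.8, 36.1 and 29.2 CPM with DMSO and 25.6, 27.8 and 28.9 CPM with THZ1, so that the treatments did not overlap but lay close. SMAD1, a transducer of bone morphogenetic protein signals, was at 122 ± 11.7 and 114 ± 6.21 CPM and did not pass the test (-0.10 ± 0.08, edgeR adjusted p = 0.253). Its sign turned with upper quartile factors and with a filter of 10 counts in every library, and it passed as lower with library sizes alone (-0.345, adjusted p = 0.000283), with no filter (-0.18, adjusted p = 0.0378) and without DMSO replicate 3. Of the 6 members with the highest levels, 4 had a partner that fell, 1 a partner that rose and 1 a partner that did not pass.

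Well-known antisense RNAs differed among themselves. MAPKAPK5-AS1 (chr12:112277562-112280706, minus strand) had 26.7, 26.7 and 28.3 CPM with DMSO and 71.1, 80.2 and 75.7 CPM with THZ1, and TMPO-AS1 (chr12:98906751-98910200, minus strand) had 104, 122 and 96.0 CPM and 202, 188 and 190 CPM. ZEB1-AS1 (chr10:31495207-31609376, minus strand) had 9.84, 9.02 and 9.87 CPM with DMSO and 22.5, 25.1 and 27.7 CPM with THZ1, and FGD5-AS1 (chr3:14961854-14989931, minus strand) 85.6, 90.7 and 78.0 CPM and 143, 146 and 140 CPM. These 4 RNAs were higher in each THZ1-treated library.

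Of their partners, 2 fell, 1 did not pass and 1 was not tested. MAPKAPK5, a stress kinase gene, fell by 0.24 (edgeR adjusted p = 0.00707), a call lost with upper quartile factors (adjusted p = 0.589) and with 10 counts in every library. TMPO, a nuclear envelope protein gene, fell by 0.32 (edgeR adjusted p = 7.18e-05), which upper quartile factors reduced to 0.13 (adjusted p = 0.0813). ZEB1, a transcription factor gene, was at 28.5 ± 4.48 and 24.5 ± 1.15 CPM (-0.22 ± 0.12, edgeR adjusted p = 0.0813), and passed the test as lower under 7 alternatives. FGD5 had too few counts for the test (0.055 ± 0.095 and 0.590 ± 0.424 CPM), so FGD5-AS1 was abundant beside a partner near 0. FGD5-AS1 also overlaps NR2C2, which lies on the opposite strand.

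OIP5-AS1 (chr15:41576156-41614590, plus strand) had 258, 295 and 239 CPM with DMSO and 154, 153 and 140 CPM with THZ1. OIP5, a centromere protein gene, fell from 20.4 ± 1.51 to 14.4 ± 2.14 CPM (-0.50 ± 0.13, edgeR adjusted p = 0.00103). OIP5-AS1 also overlaps NUSAP1, which lies on its own strand. MCM3AP-AS1 (chr21:47649110-47679304, plus strand) had 74.3, 74.3 and 77.1 CPM with DMSO and 38.4, 34.6 and 37.2 CPM with THZ1, while MCM3AP, an mRNA export factor gene, was at 124 ± 8.07 and 134 ± 3.64 CPM (0.11 ± 0.07, edgeR adjusted p = 0.156), passed the test as higher under 3 alternatives and was at -0.14 with library sizes alone. Both RNAs were lower in every THZ1-treated library.

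PSMB8-AS1 (chr6:32811855-32814277, plus strand) had 45.5, 39.6 and 52.4 CPM with DMSO and 36.0, 25.6 and 38.5 CPM with THZ1, and PSMB8, an immunoproteasome subunit gene, fell from 107 ± 10.4 to 77.1 ± 3.36 CPM (-0.47 ± 0.08, edgeR adjusted p = 3.39e-06). PSMB8-AS1 also overlaps PSMB9 on its own strand and TAP1 on the other. SBF2-AS1 (chr11:9779815-9832882, plus strand) had 8.76, 11.23 and 8.61 CPM with DMSO and 6.84, 4.57 and 5.48 CPM with THZ1, and SBF2 fell from 20.1 ± 3.0 to 8.51 ± 2.38 CPM (-1.24 ± 0.16, edgeR adjusted p = 3.36e-08). In both pairs the lncRNA and the partner were lower in all THZ1-treated libraries.

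At the edge of the level threshold, the members just inside were HDHD5-AS1 (highest treatment mean 2.01), SH3BP5-AS1 (2.02) and IRF1-AS1 (2.02), and the genes just outside were TAF1A-AS1 (1.99), NDUFA6-DT (1.98) and CACNA2D3-AS1 (1.90). HDHD5-AS1 had 1 to 3 counts with DMSO and 5 to 10 with THZ1 and did not pass the filter. Its partner HDHD5 fell by 0.78 (edgeR adjusted p = 3.26e-09). IRF1-AS1 had 6.86, 8.11 and 7.76 CPM with DMSO and 10.4, 9.83 and 11.9 CPM with THZ1, but its deposited level was the lower with THZ1 (2.02 and 1.49), and limma on the deposited values gave -0.53 against 0.50 in the counts. IRF1, an interferon regulatory factor gene, fell by 0.28 (edgeR adjusted p = 0.00292), a call lost with upper quartile factors (adjusted p = 0.340) and with 10 counts in every library.

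The order of lncRNA and partner within a pair also differed between treatments, in the per-length deposited levels. Of 275 pairs with a deposited level for both genes, the lncRNA was above its partner in 57 with DMSO and in 125 with THZ1. These are not all the same pairs as the 275 with both genes tested. In 77 pairs the lncRNA was above the partner with THZ1 only, and in 9 with DMSO only. Among the 132 pairs with starts within 1 kb these numbers were 14 with DMSO, 59 with THZ1, 48 above with THZ1 only and 3 with DMSO only. Among the 174 pairs at the level of 2 in both treatments, the lncRNA was above its partner in 49 with DMSO and in 89 with THZ1. The choice of members used these lncRNA levels, so the counts are a description.

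Proteins that bind, end or degrade upstream antisense RNA, together with U1 snRNP proteins, which protect against early ending, form a list that the rule did not use. Counts over the list pool these opposite roles. All 34 genes of the exosome, its targeting complexes, the cap-bound complex, early termination and U1 snRNP were tested, and 10 rose, 19 fell and 5 did not pass (edgeR adjusted p under 0.05 at any fold). The list's shares were 29.4% higher and 55.9% lower, against 36.3% and 47.6% of protein-coding genes and 43.5% and 41.1% of all genes tested. Its median log2 fold change was -0.36, against -0.20 for protein-coding genes and 0.03 for all genes. At 1.5 or more, 2 genes rose and 5 fell, against 15.3% and 13.3% of protein-coding genes and 24.6% and 12.9% of all genes. SRRT, the cap-bound ARS2 protein, rose from 325 ± 31.5 to 3061 ± 15.3 CPM (3.24 ± 0.08, edgeR adjusted p = 3.21e-26), and PCF11, a cleavage and termination factor, rose from 83.7 ± 5.73 to 656 ± 19.3 CPM (2.97 ± 0.07, edgeR adjusted p = 6.53e-26). The genes of smaller increase included SNRNP70 (1.23) and PABPN1 (1.08), the U1 snRNP 70K protein and the nuclear poly(A) binding protein. The other U1 snRNP protein genes of the list fell, SNRPA by 0.40 (edgeR adjusted p = 4.09e-05) and SNRPC by 0.65 (edgeR adjusted p = 3.91e-08).

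Of the 13 genes of the exosome and its cofactors, 9 fell, EXOSC6 rose (1.02) and 3 did not pass. INTS9, an Integrator subunit, fell from 34.5 ± 2.07 to 6.5 ± 0.17 CPM (-2.41 ± 0.13, edgeR adjusted p = 6.71e-17), and MPHOSPH6, an exosome cofactor, from 43.5 ± 4.28 to 10.2 ± 1.61 CPM (-2.09 ± 0.13, edgeR adjusted p = 5.47e-16). The exosome subunit EXOSC5 fell by 1.74, the helicase MTREX by 1.71 and the cap-binding subunit NCBP1 by 1.67, whereas the catalytic subunit EXOSC10 was at 145 ± 3.26 and 136 ± 11.5 CPM and did not pass (edgeR adjusted p = 0.220). DIS3, another nuclease of the complex, fell by 0.74. Among these genes every DMSO-treated library of INTS9 and MPHOSPH6 was above every THZ1-treated library, and every library of SRRT and PCF11 was separated in the other direction.

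**Figure D5:**
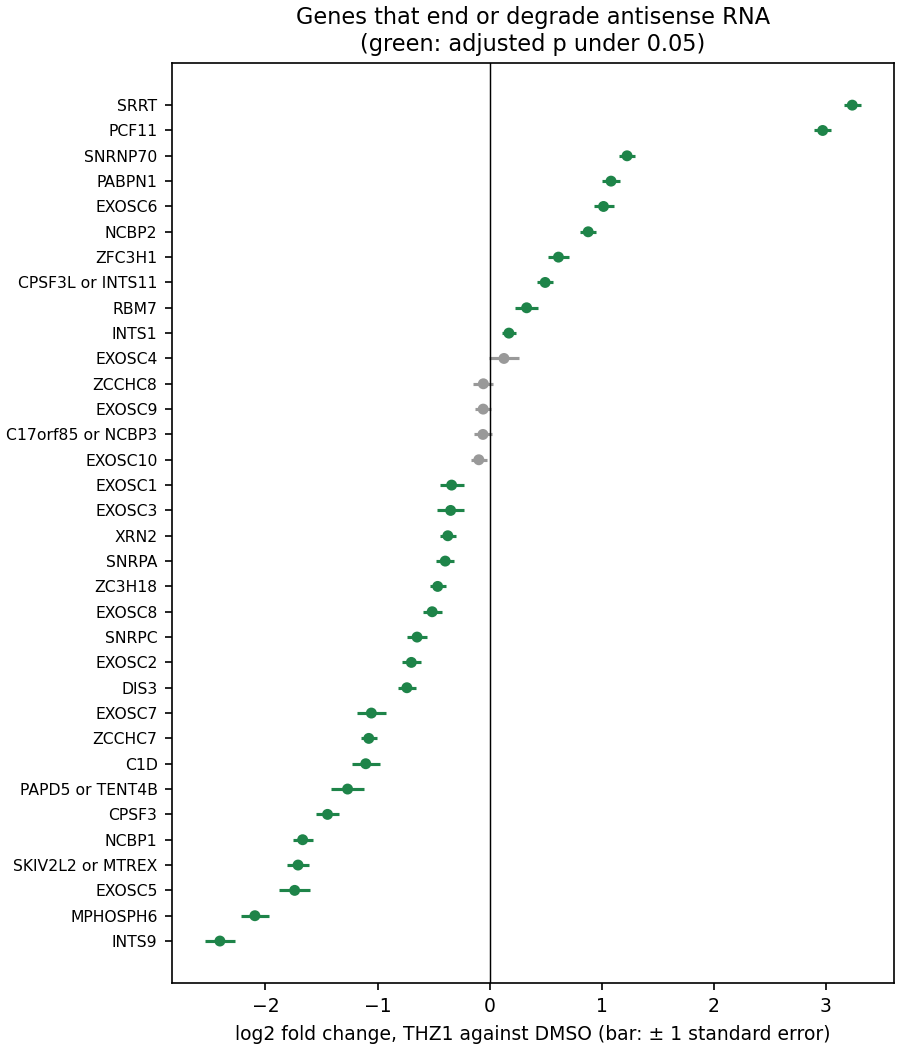
Log2 fold change (THZ1 against DMSO) of the 34 listed genes, 1 point per gene with a bar of 1 standard error, green where the edgeR adjusted p was under 0.05. Their proteins bind, end or degrade antisense RNA or, for U1 snRNP, protect RNA from early ending. The genes spread from INTS9 (-2.41) to SRRT (3.24), with 19 of the green genes lower and 10 higher.

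Sequence around the starts was compared as a description, over GRCh37 and on each gene's own strand. In the 300 bases before the start, a GC box (GGGCGG or CCGCCC) was present in 55.9% of 299 members, in 69.6% of members that start within 1 kb of the partner's start and in 43.9% of those that start inside or beyond it. Partners held one in 76.6%, protein-coding genes tested in 73.1%, other lncRNA genes tested in 35.9% and all genes tested in 62.8%. A CCAAT box (CCAAT or ATTGG) was present in 29.8% of members and 36.3% of all genes, and TATAAA or its reverse complement in 10.4% and 8.28%. The median G + C share was 63.3% in members and 66.3% in partners, and 67.2% in members with starts within 1 kb.

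In the first 1000 bases after the start, intron bases included, the poly(A) signal AATAAA was present in 31.4% of members, in 17.6% of their partners, in 17.6% of protein-coding genes and in 37.7% of other lncRNA genes tested. The 5′ splice site sequence GGTAAG was present in 25.8%, 20.3%, 23.6% and 21.3% of these. The share with AATAAA was much the same in members that start within 1 kb of the partner (30.4%) and in those that start inside or beyond it (32.4%).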

How the data were processed

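Libraries were made from total RNA of NALM6 cells, 3 with DMSO and 3 with 500 nM THZ1 for 24 h. Per the methods of the study, the authors filtered reads, mapped them to GRCh37 with STAR and deposited raw read counts per gene from htseq-count, whose annotation and strand setting are not given in the sources used here. The authors also deposited RSEM expression levels on a log2 scale, read here as log2(FPKM + 1). In these the sorted values of the 3 libraries of 1 treatment were nearly alike, and genes with 0 counts under DMSO stood at 0.336. That table also holds p-value, adjusted p-value and log2 fold change columns of the authors' own comparison, deposited but not used. The submitters' processing notes list cutadapt, STAR, HTSeq and RSEM.

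Here, edgeR 4.0.16 quasi-likelihood tests were run in R 4.3.3 on the counts of genes passing filterByExpr (minimum count 10, minimum total 15), with TMM scaling and Benjamini-Hochberg adjustment over 16622 genes. CPM are counts per 1000000 after that scaling. Calls at 1.5 need an adjusted p under 0.05 and that log2 fold change, "any fold" the adjusted p alone. DESeq2 1.42.0 and limma 3.58.1 (deposited values) served as alternatives. The main edgeR fit, DESeq2, limma and the placing of pairs were tested on simulated data with known answers. Planted increases and decreases were equal in number there, and limma ran on simulated counts. The other scalings, filters and designs and the limma fits of deposited values were not simulated.

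Partners were matched by deposited symbol (271), by GENCODE symbol (26) or by RefSeq synonym (3). Members, gene lists and tests were chosen with earlier results of these data known. The members' own change was given no p, because their level in each treatment chose them. Named were the 6 members with the highest level, the 6 highest and 6 lowest log2 fold changes among separated members with a mean of at least 10 counts, up to 4 pairs each in opposite and same directions (1 pair is not reported here), 3 genes on each side of the threshold and a list of well-known members. PCNA-AS1, CCND2-AS1, BCL2L1-AS1 and BMP2K-DT of that list did not qualify. Floors are 3 counts per library, and intervals are 95% Clopper-Pearson intervals on the split of summed counts. The region between gene spans is printed in place of fixed promoter windows. The same replicate numbers occur in both treatments, but deviations of same-numbered libraries correlated at -0.004, 0.00097 and 0.0206, so they were not treated as pairs.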

Additional observations from a re-analysis of the deposited data

How the results depend on the processing

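The share of partners called higher (11.5%) was 6.27% with limma on log2(FPKM + 1), 6.30% with limma and a mean FPKM of at least 1, 34.3% at any fold and 6.82% over partners that do not overlap the lncRNA gene. The share called lower (9.79%) was 16.4% with library sizes alone, 17% with limma on log2(FPKM + 0.1), 51.4% at any fold and 16% over partners sharing no exon base. The share of members called higher (44.4%) was 73.1% without shared exon bases. It was 30.7% with 10 counts in every library and 33.1% with limma on log2(FPKM + 1). The share of members called lower (3.50%) was 8.28% with limma on log2(FPKM + 0.1). It was 2.20% at a level of 3 and 2.27% with starts within 1 kb. The median difference to the partner (1.17) was 1.31 with DESeq2, 1.30 without a count filter, 0.61 with 10 counts in every library and 1.06 with limma on log2(FPKM + 1), with or without its filter, and 1.10 to 1.27 with a library left out. Removing genes with few counts removes members near 0 under DMSO, and the causes of the other shifts were not tested. The splits by exon base and by start were chosen after seeing the data.

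IRF1-AS1 turned to -0.53, -0.73 and -0.53 in the 3 limma fits. TMCC1 turned to -0.13 with library sizes and to -0.52, -0.62 and -0.52 in the limma fits, MCM3AP to -0.14 and STARD4 to -0.11 with library sizes, and SMAD1 to 0.098 with upper quartile factors and 0.037 with 10 counts in every library. None of these 4 partners had passed the test. Against TMM, the median of all genes moved by 0.19 with upper quartile factors, by -0.25 with library sizes, by 0.13 with 10 counts in every library, by -0.26 with limma on log2(FPKM + 1) and by -0.31 on log2(FPKM + 0.1), so the direction of partner changes of that size can depend on these choices. Only upper quartile factors and library sizes change the scaling alone, since the others also change the genes tested or the data and model. With the replicate number as a replicate block, 11.5% of partners were called higher and 9.79% lower, and the median difference was 1.18. Of the shares and medians for the whole sets, 111 values under alternatives stayed within 1.5 times or within the spread and 19 moved. Without DMSO replicate 3, SMAD1 (adjusted p = 0.0193) and ZEB1 (0.00989) passed the test, without DMSO replicate 2 STARD4 (0.0389), and without DMSO replicate 1 ZEB1 (0.0418). At 7876402 to 11164840 counts, named genes without a count in any DMSO-treated library have bounds and no measured fold. The ratios of RB1-DT, ADAMTSL4-AS1 and LMF1-AS1 rest on at most 3 counts per library in 1 treatment, so their size is poorly known.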
